A study of Mus musculus with 4 samples.

Results

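The Snrpn and Ube3a domain of mouse chromosome 7 was followed here in CTCF chromatin immunoprecipitation sequencing (ChIP-seq) data. It was defined by 5 imprinted genes, Ube3a, Snrpn, Ndn, Magel2 and Mkrn3, and by every CTCF summit from 100 kb outside the outermost gene on each side (chromosome 7, 59128750 to 62520139, mm10, 3.39 Mb). A summit is the position of strongest signal in a peak. The domain held 24 of the 44672 summits in the list reproducible between both pools of tissue, called the conservative list below, and 64 of the 133567 ranked summits from which that list was cut. The genes and the window, and not the peak values, decided which summits belong.

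The mice were adult females of the F1 cross B6CASTF1/J, aged 2 months, and the tissue was their left cerebral cortex. There was no treatment and no second genotype. The samples formed 2 groups, pool I and pool J, each made from 4 cortex biosamples and sequenced as 2 technical libraries, so values rest on 2 pools. The peak lists hold no value per library or per allele, and no expression level against which the tissue label could be checked.

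CTCF is a zinc finger protein that binds a long, oriented DNA motif. Together with cohesin it holds chromatin loops, most often between motifs that point towards each other, and at several imprinted loci it binds one parental allele only. In this domain Snrpn, Ndn, Magel2 and Mkrn3 are transcribed from the paternal chromosome. Ube3a, a ubiquitin ligase gene, is transcribed from the maternal chromosome in neurons, where the long paternal transcript Snhg14 runs antisense through it. The corresponding human region is the Prader-Willi and Angelman syndrome region.

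The 24 conservative summits were numbered 1 to 24 in genome order. A CTCF motif of 20 bases was learned from strong peaks on other chromosomes, and the best window within 50 bp of each summit was scored against it. The sequences below come from the reference genome GRCm38.p6, are 30 bases long and are written 5′ to 3′ on the strand of the best window, with the motif window in capitals. They are shown because the description rests on the likeness of sites 4 to 8 and of the pair 21 and 22. It also rests on sites near Magel2, Mkrn3 and Peg12, among them the 2 strongest of the domain. The most frequent base at each motif position comes first.
most frequent bases: GTGGCCACCAGGGGGCGCTA
site 4, plus strand, chr7:60238972-60239001: aatttTTGGACGGTAGATGGCGGTGtgcac
site 5, plus strand, chr7:60387145-60387174: aatttTTGGACGGTAGATGGCGGTGtgcac
site 6, plus strand, chr7:60488228-60488257: aatttTTGGACGGTAGATGGCGGTGtgcac
site 7, plus strand, chr7:60617450-60617479: aatgtTTGGACGGTAGATGGCGGTGtgcac
site 8, plus strand, chr7:60728505-60728534: aatttTTGGCCGGTAGATGGCGGTGtgcac
site 17, minus strand, chr7:62375835-62375864: ggaaaGAAACCACTAGGGGGCAGAAgagaa
site 18, minus strand, chr7:62382594-62382623: gctagTTGGCCAGTAGGTGGCAGAAaagtt
site 20, minus strand, chr7:62400362-62400391: acaatGTGGCCACCAGAGGGAGACAtgggc
site 21, minus strand, chr7:62428519-62428548: tacatGTAACCACTGGAGGGCGCACatgta
site 22, minus strand, chr7:62433448-62433477: tacatGTAACCACTAGAGGGCACACatgta
site 24, plus strand, chr7:62464685-62464714: acttaCGGGCCACCAGAAGGCAGACgatgc

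Sites 4, 5 and 6 were identical over all 30 bases. Counting from 1 at the 5′ end, site 7 differed from site 4 by T4G, outside the capitals, and site 8 by A10C, inside them. Site 21 and site 22 differed by G15A and G22A, the second of which removed the CpG of site 21. Site 20, the strongest site of the domain, matched the most frequent base at 16 of 20 motif positions. Site 24, the second strongest, matched it at 12, and sites 4 to 7 at 11.

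**Figure D1:**
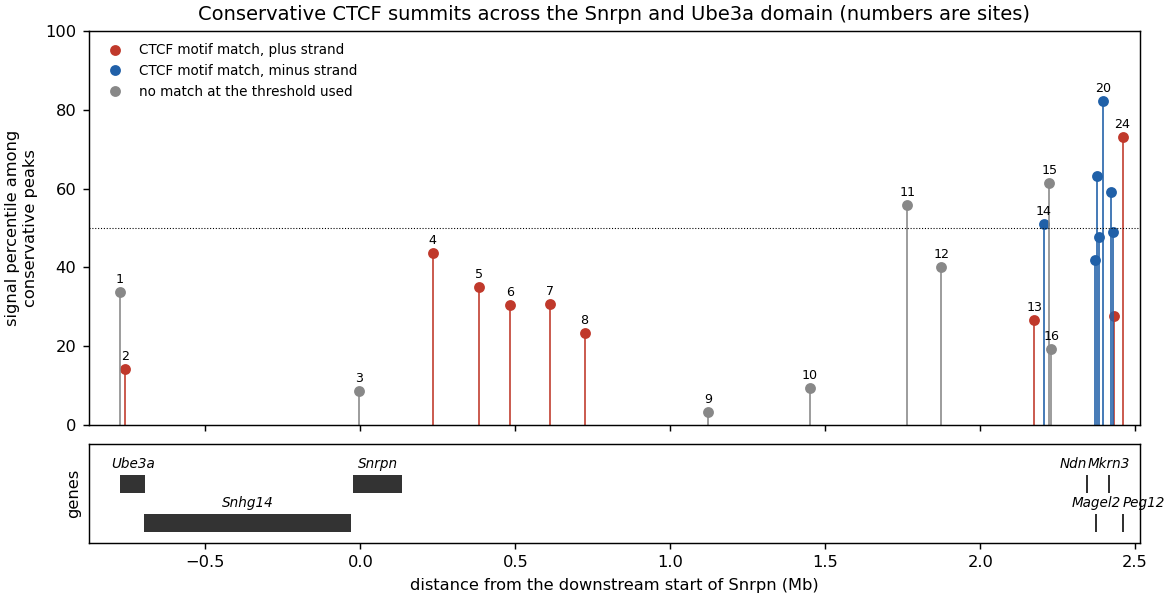
Signal percentile of the 24 conservative summits (vertical axis, rank of the peak's signal among all conservative peaks) against distance in Mb from the downstream start of Snrpn (horizontal axis), coloured by motif strand, with gene spans below. The summits run from the 3.31 to the 82.3 percentile, and sites 4 to 8 lie upstream of Snrpn, all on the plus strand.

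Taken as a whole, the domain had sparse CTCF summits of moderate strength, though not in every stretch. The domain held 7.18 conservative summits per Mb of known sequence (exact 95% Poisson interval 4.6 to 10.7, which covers counting of peaks only), against 18.1 per Mb over all autosomes and 20.5 over chromosome 7. Among 694 autosomal windows of the same length the median was 54 summits, and 113 windows (16.3%) held 24 or fewer. Soft-masked repeats made up 46.9% of the known bases of the domain and 33.5% of those of the autosomes. All summits, those in repeats included, divided by the Mb outside repeats gave 13.5 and 27.3.

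Of the 24 summits, 23 had the highest possible score of 1000, the deposited score being a scaled irreproducible discovery rate (IDR). The share of the whole list with that score was not counted, so 23 of 24 is not read as a trait of the domain. The IDR estimates what share of the peaks down to a given rank would not recur in the other input, and the list was thresholded at 0.05. Signal, a value in the peak caller's own unstated unit, ran from 82.3 to 497 in the domain. Its median was 195, against 269 in the whole list, and 7 of 24 summits lay above the list's median. Of the ranked summits of both pools in the domain, 24 of 64 (37.5%) passed the IDR threshold, beside 33.5% of the whole ranked list.

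The summits were unevenly spread. The stretch from the start of Ndn to the end of Mkrn3, 73.6 kb, held 4 summits (54.4 per Mb, interval 14.8 to 139), and the 100 kb beyond Mkrn3 held 4 more (40.0 per Mb, interval 10.9 to 102). The 2.21 Mb between Snrpn and Ndn held 13 (5.89 per Mb, interval 3.14 to 10.1). The 671 kb between Ube3a and Snrpn held none (interval up to 5.94 per Mb). The median signal percentile was 55.4 in the Ndn to Mkrn3 stretch and 30.6 between Snrpn and Ndn.

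**Figure D2:**
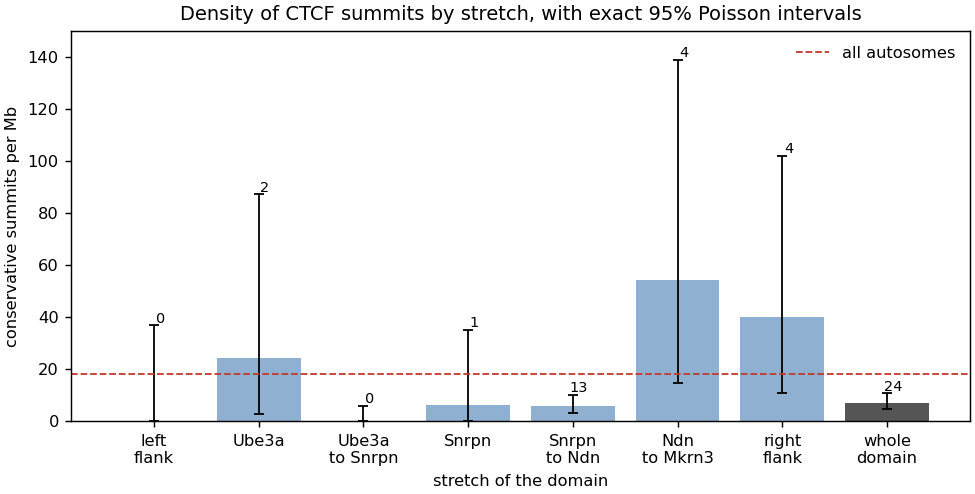
Conservative summits per Mb (vertical axis) in each stretch of the domain and in the whole domain, with exact 95% Poisson intervals as error bars and the number of summits above each bar; the dashed line is the density of all autosomes, 18.1 per Mb. The stretches from Ube3a to Snrpn and from Snrpn to Ndn lie below the line with their intervals, as does the whole domain.

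Distances between neighbouring summits had a median of 101 kb in the domain and 21.4 kb on the autosomes. Of the 23 distances, 1 was of 500 kb or more, beside 1.18% of autosomal ones. It was the 755 kb from site 2 inside Ube3a to site 3 inside Snrpn, a length reached by 0.555% of autosomal distances and by 21 on chromosome 7. At the other end, 5 of the 23 were of 10 kb or less, beside 13670 of 43429 autosomal ones. All 5 were between sites 15 and 23.

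Ube3a encodes the E3 ubiquitin ligase lost in Angelman syndrome. It lies on the plus strand at 59228750 to 59311536 and was the single member with a conservative summit within 1000 bp of an annotated start, 1 of 5 members beside 20.8% of all protein-coding genes. That summit, site 1 at 59229001, lay 199 bp downstream of the annotated start at 59228802, in an exon outside the coding sequence. Its signal was 112 in pool I and 68.5 in pool J, and its percentile in the conservative list 33.6. No motif match was found within 50 bp of it. The RefSeq promoter window of Ube3a held 29 CpGs, beside a median of 7 over 32851 such windows of the same length, and 2 to 15 in the windows of the other members.

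Site 2, at 59245734 in an intron of Ube3a, had a signal of 81.9 in pool I and 27.0 in pool J and a plus strand match. It was in a soft-masked repeat, and its 30 bases had 9640 near copies in the genome with up to 6 mismatches, of which 486 (5.04%) overlapped a conservative peak. Pool I's own list added summits at 59261198 in the Ube3a body, with a score of 628, and at 59307301, with a score of 1000. The second was in the ranked list of both pools with an IDR of 0.0962, short of the threshold. Its signal was 48.5 in pool I and 16.2 in pool J.

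Between Ube3a and Snrpn lies most of Snhg14, the antisense host transcript that carries the snoRNA clusters (59307924 to 59975759 in GENCODE). No summit was listed there in any of the 4 thresholded lists, and the ranked list of both pools had 5, none with an IDR of 0.05 or less. Unknown bases took up 7.45% of these 671 kb, and repeats 67.0% of the known bases. Windows of 32 bases that occur once in the genome started at 31.7% of positions with known sequence, beside 66.5% in the whole domain. Reads from repeated sequence cannot be placed with certainty, and their part in the empty stretch was not tested.

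Snrpn encodes SmN, a protein of the splicing machinery, and Snurf shares its transcript. GENCODE places the gene on the minus strand at 59982495 to 60140219, with starts at 60005111 and 60140219. Its only conservative summit was site 3, at 60000897, in an intron 4214 bp inside the downstream start and also inside Snurf. The signal was 69.2 in pool I and 29.6 in pool J, at the 8.51 percentile, with no motif match. A further summit was listed 2814 bp upstream of the same start, at 60007925. It had a score of 1000 in the list of the pooled reads and in pool I's list. In the ranked list of both pools it had an IDR of 0.682, a signal of 77.2 in pool I and 18.9 in pool J. The ratio of pool I to pool J was 4.09-fold. The conservative list, which does not hold this summit, had a median ratio of 2.13. Other summits that the thresholded lists added stood at 1.65 to 3.12-fold where a ratio was available. Pool I's list alone also placed a summit in an intron of Snrpn, at 59991974, with a score of 594 and a minus strand match. RefSeq has an exon of Snrpn at 60007499 to 60007689, 236 bp from the summit at 60007925. The imprinting centre of the domain is known to include the region of this downstream start.

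Upstream of Snrpn stood 5 summits, sites 4 to 8, with nearly the same sequence. Site 4 had a signal of 146 in pool I and 79.2 in pool J. Site 5 had 133 and 46.4, and site 6 had 121 and 40.7. Site 7 had 120 and 45.8, and site 8 had 94.6 and 40.9. Both pools thus listed all 5, with pool I higher at each, and site 4 was the highest and site 8 the lowest in pool I. Their percentiles in the conservative list ran from 43.5 at site 4 to 23.2 at site 8. The summits were 148, 101, 129 and 111 kb apart.

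The 30 bases of site 4 were searched on both strands of chromosomes 1 to 19, X and Y. With up to 6 mismatches they occurred 5 times, all in this domain, all on the plus strand and all overlapping a peak in each of the 4 thresholded lists. The 301-base windows centred on the summits aligned in all 10 pairs, with 92.6 to 96.5% identity over 224 to 299 bases. Outside these 5, sites 21 and 22 were the only pair of the 24 that aligned (76.5% over 183 bases). Within 3 mismatches, 16 of the other 19 sites had no second copy in the genome, and sites 2, 21 and 22 had more. Sites 5 to 8 fell outside the rule for naming summits and were chosen after their sequences and values were seen, as were sites 9, 10, 13 and 23 and the summits that single lists added.

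The likeness limits how precisely reads can be placed. Around sites 4 to 8, 33.9 to 60.8% of positions within 150 bp of the summit started a 32-base window found once in the genome, lowest at site 4 and highest at site 7. At the other 19 sites this was 78.7 to 100%. How the deposited lists treated reads with several placements is not given in the sources used here, so the share of each copy in the signal cannot be told apart. GENCODE puts all 5 between genes, 98.8 to 588 kb upstream of the nearest start of Snrpn. RefSeq extends Snrpn to 60450177, which takes in sites 4 and 5, and has exons 18.7 and 14.5 kb from them.

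Ndn (necdin) and Magel2 belong to the MAGE family, and Mkrn3 encodes a RING finger ubiquitin ligase. Ndn, on the plus strand at 62346569 to 62350262, had no summit in the gene or within 10 kb upstream in any of the 4 thresholded lists or in the ranked list of both pools. The nearest conservative summit was 29282 bp from its start. Counting all members, 4 of 5 had a summit in the gene or 10 kb upstream, beside 61.3% of protein-coding genes.

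Magel2, on the plus strand at 62377010 to 62381640, had site 17 at 62375851, 1159 bp upstream of its start. The signal there was 171 in pool I and 48.6 in pool J, and the motif match was on the minus strand. Pool I's list alone placed another summit 127 bp from the Magel2 start, at 62377137, with a score of 780. Sites 18, 19 and 20 followed downstream of Magel2, in introns of the lncRNA gene Gm32061. Their signals were 254, 174 and 320 in pool I and 111, 76.9 and 182 in pool J, in that order. Site 20, at 62400363, was the strongest of the domain in each of the 4 thresholded lists, at the 82.3 percentile of the conservative one.

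Mkrn3, on the minus strand at 62417593 to 62420139, had site 21 at 62428547, 8408 bp upstream of its start. The signal of site 21 was 240 in pool I and 102 in pool J, and that of site 22, 4.92 kb further, 179 and 84.2. Both pools listed site 21 as the higher of this pair of like sequences. It is the site with the CpG, but its motif score was the lower, 15.8 against 20.8 at site 22. The pair also differs at G15A and in the bases around the motif, and no cause of the signal difference was tested. Peg12, an imprinted gene of the Frat family next to Mkrn3, had site 24 at 62464659, 149 bp from its start. Site 24 was second in signal in the domain, with 275 in pool I and 164 in pool J, at the 73.2 percentile.

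Motif matches were found at 16 of 24 summits (66.7%, exact 95% binomial interval 44.7 to 84.4), beside 69.7% of conservative summits on the even-numbered autosomes and X. Windows 1000 bp from those summits had a match in 0.894%. A match held a CpG, the dinucleotide that DNA methylation uses, at 7 of 16 domain sites, beside 40.0% of all matches, and 5 of the 7 were sites 4 to 8. A summit lay in a soft-masked repeat at 3 of 24 sites, beside 19.9% of the list.

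Matches in the domain came in runs of 1 strand. From Ube3a towards Ndn, all 7 matches were on the plus strand (sites 2, 4 to 8 and 13). The next 7, from site 14 through Magel2 to site 22 beyond Mkrn3, were all on the minus strand, and sites 23 and 24 were again plus. Of 15 neighbouring pairs 13 were thus on the same strand, beside 51.9% over the whole list. At the main threshold, the only pair pointing towards each other was sites 13 and 14, 29967 bp apart at 62179609 and 62209576. With site 4 kept and sites 5 to 8 left out, 9 of 11 neighbouring pairs were on the same strand. At the threshold that 5% of flanking windows pass, which gives 22 matches, 14 of 21 pairs were on the same strand. Of the others, 3 pointed towards each other and 4 away, so the single facing pair depends on the threshold. The share of 51.9% over the whole list holds for the main threshold and was not counted at the 5% one.

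Pool I had the higher signal at 24 of 24 summits, in a list whose median ratio of pool I to pool J was 2.13-fold. Relative to that median the domain's log2 ratios ran from -0.39 to 0.73, with a median of 0.13. Over all ranked peaks of both pools the domain's median turned to -0.05 relative to the median of that list. Only site 17, upstream of Magel2, lay more than 1.5-fold away (3.52-fold, 0.73 on the log2 scale), beside 8.61% of conservative peaks.

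**Figure D3:**
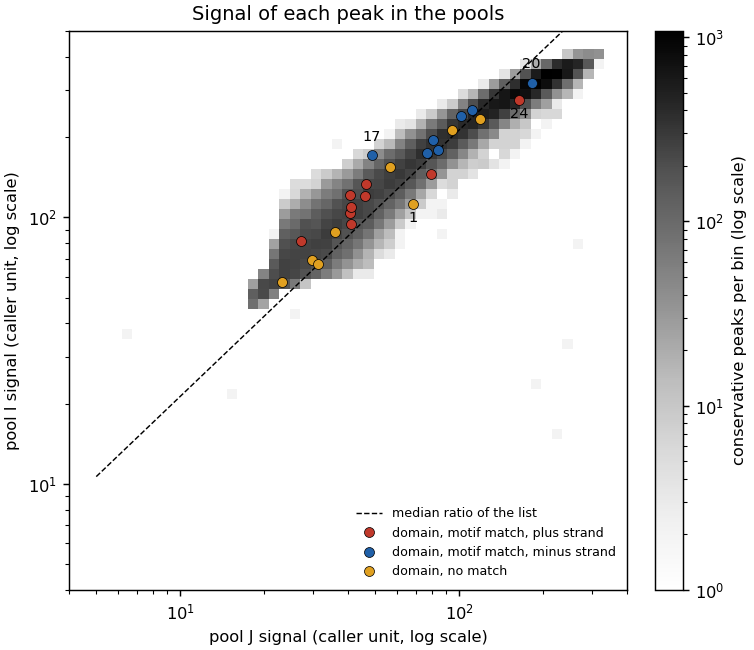
Pool I signal (vertical axis) against pool J signal (horizontal axis), both in the caller's unit on log scales; grey bins count all conservative peaks, coloured points are the 24 sites of the domain and the dashed line is the list's median ratio of 2.13. Site 17 lies at the upper edge of the cloud and site 1 at its lower edge, and weaker peaks of the whole list sit above the line.

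The ratio fell with signal over the list. Against the median ratio of the 1001 conservative peaks nearest in signal, the domain's deviations ran from -0.64 to 0.54 on the log2 scale, with a median of 0.02. Then only site 1, at the Ube3a promoter, lay more than 1.5-fold away, with relatively less signal in pool I (-0.64), beside 2.12% of conservative peaks. Site 17 stood at 0.54. With 2 pools these differences have no replicate check.

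Each of the 24 summits was also in the list of the pooled reads and in both pools' own lists. The other lists added few. The list of pooled reads had 28 summits in the domain, pool J's list 26 and pool I's list 34. Of pool I's 34 peaks, 27 overlapped a peak of pool J, while all 26 of pool J overlapped one of pool I. The whole lists held 82131 peaks for pool I and 52658 for pool J, and their overlap was not counted. Of the added summits, 0 of 4 in the pooled reads' list, 3 of 9 in pool I's and 0 of 2 in pool J's had a motif match. The share with a match among such summits over the whole lists was not counted either.

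**Figure D4:**
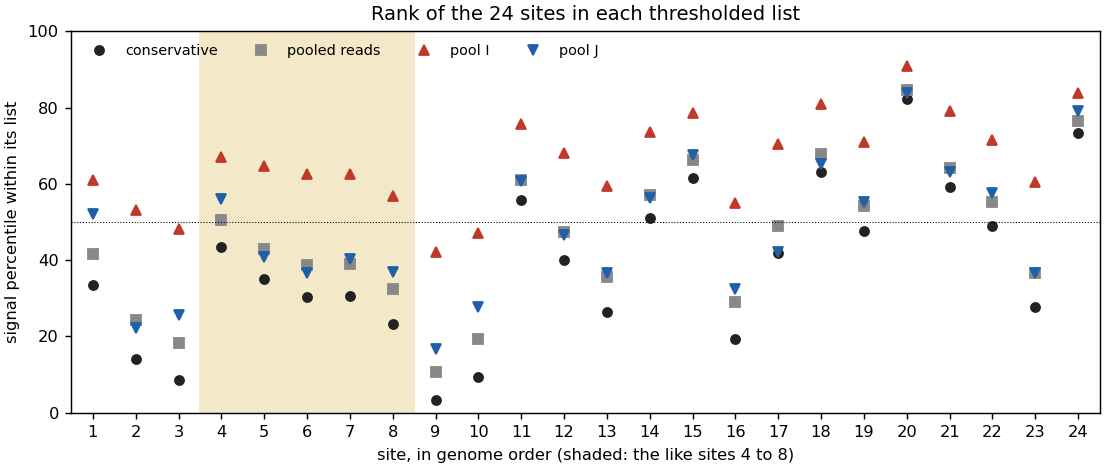
Signal percentile within each of the 4 thresholded lists (vertical axis) for the 24 sites in genome order (horizontal axis), with sites 4 to 8 shaded. Percentiles are highest in pool I's list, which is the longest; site 20 leads and site 9 is lowest in every list.

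The genes around the domain were taken from a list of 16, chosen as neighbours of the human orthologous region. A promoter summit was found at 5 of the 16, beside 20.8% of all protein-coding genes, and a summit in the gene or 10 kb upstream at 13, beside 61.3%. Those with a promoter summit were Peg12, the GABA-A receptor subunit genes Gabrg3 and Gabra5, the nicotinic receptor gene Chrna7 and the transcription factor gene Klf13. The summits lay 273, 1, 136 and 16 bp from the starts of the last 4, in that order. Snhg14, Nipa2 and Tubgcp5 had none in the gene or 10 kb upstream with the GENCODE spans. RefSeq's longer span of Snhg14, 59272737 to 60450177, held 3.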

How the data were processed

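CTCF ChIP-seq gave 8 peak lists on mm10, 4 thresholded by IDR and 4 ranked before it. Per the deposited notes, they came from pool I, pool J, both pools as replicates, and pooled reads, with the libraries of a pool merged. The score deposited by the authors is a scaled IDR, with 540 standing for 0.05. The ranked lists also hold the IDR as −log10, as the authors deposited it. The signal deposited by the authors has no stated unit. The sources used here name no aligner, caller or version, and read depth is unknown. In the ranked list of both pools, 84.5% of first inputs were identical to a pool I peak and 61.8% of second inputs to a pool J peak.

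Reference and annotation were GRCm38.p6, GENCODE M21 basic and RefSeq. For the motif, the 1000 strongest conservative peaks of the odd autosomes other than 7 were used, and a match scored above 99% of flanking windows. Scripts used Python 3.11.15, SciPy 1.17.1 and BLAST+ 2.17.0, and motif scanning was tested on simulated data. No test between groups was made. Named summits were the 10 strongest and those in or within 10 kb of a listed gene, with exceptions stated. Members and lists were chosen with earlier results of these data known.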

Additional observations from a re-analysis of the deposited data

How the results depend on the processing

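The count of 24 summits was 20 to 34 in the other thresholded lists, at an IDR of 0.01, with separate intervals, and with no flank or 500 kb of flank. It was 64 in the ranked list. Promoter summits went from 1 member to 3 with a window of 5000 bp and to 2 in pool I's list. Members with a summit in the gene or 10 kb upstream went from 4 to 2 without the upstream part. Shares of all protein-coding genes were not counted at these settings. The median percentile of 37.5 was 59.9 in pool I's list. The share with a motif match was 20.8% at the threshold that 0.1% of flanking windows pass and 91.7% at 5%, by their construction. The shares over the whole list at these thresholds were not counted. At the stricter threshold, 3 of 4 neighbouring pairs were on the same strand, again without a share over the whole list. The median log2 pool ratio, 0.13 from the list's median, was -0.05 over all ranked peaks, and the cause was not tested. With RefSeq's span, 3 conservative summits lay inside Snrpn in place of 1. The comparisons of neighbouring strands, of like signal and of RefSeq's span were added after seeing the data. No paired analysis was possible because the lists merge the libraries of a pool and no test was made. The limits are a signal in an unstated unit, merged alleles and libraries, and an unknown read depth.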

Other observations

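Site 9, the weakest summit of the domain, lay at 61126441, 986 kb from the nearest protein-coding start, with a signal of 57.3 in pool I and 23.2 in pool J. It was the single conservative summit between sites 8 and 10, which it divided into distances of 397923 and 329553 bp. Summits at 60374174 and 61698080, chosen after their values were seen, were in the lists of the pooled reads, of pool I and of pool J but not in the conservative list, with IDRs of 0.225 and 0.138 between the pools.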
